A study of Homo sapiens with 8 samples.

Results

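The collagen genes are described here across 4 conditions of the human melanoma line COLO829, an established line with mutant BRAF. Members were all genes whose symbol is COL, a type number, A and a chain number, read from probe sets that carry exactly 1 gene symbol, with the brightest probe set for each gene. This gave 43 collagen genes, read from 44 such probe sets, among 18404 genes tested. They comprised 11 fibrillar, 9 network-forming, 10 fibril-associated, 5 beaded-filament, 1 anchoring-fibril, 2 multiplexin and 3 transmembrane collagen genes and 2 others, COL26A1 and COL28A1. COL17A1 was not analysed here.

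The groups, of 2 arrays each (A and B), were MITF knockdown with PLX4032, MITF knockdown with DMSO, scrambled hairpin with PLX4032, and scrambled hairpin with DMSO. Infected populations carried the pGIPZ vector with a hairpin that targets MITF (a transcription factor central to the melanocyte lineage) or with a scrambled hairpin, and all were selected with puromycin for 2 days. They then received PLX4032 at 1 µM (the BRAF inhibitor vemurafenib) or its solvent DMSO for 24 h, so all 4 groups share the vector and the selection. The labels name a single MITF hairpin vector, and all arrays come from 1 cell line. Whether A and B were separate cultures is not stated, so the p-values reflect no more than the spread of these arrays, and that spread may be technical.

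Collagens are secreted or membrane-bound proteins whose chains wind into a triple helix. Each chain is hydroxylated and folded in the endoplasmic reticulum before export, and the trimers then assemble outside the cell into fibrils (such as types I, III and V), into the sheet of the basement membrane (type IV) or into beaded filaments (type VI). Several collagens are mixed trimers of chains from different genes, so the genes of a type are described together below. In skin, melanocytes rest on a basement membrane that contains type IV collagen, and melanoma cells are known to produce matrix of their own.

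The arrays of a group lay close together. Pearson's r across genes was 0.99734 to 0.99844 within groups and 0.96279 to 0.98437 between groups. MITF read 10.07 and 10.08 in knockdown cells under PLX4032 and 9.57 and 9.47 in knockdown cells in DMSO, against 10.88 and 10.80 in scrambled cells under PLX4032 and 10.44 and 10.46 in scrambled cells in DMSO. It fell on knockdown in DMSO (-0.93 ± 0.080, limma adjusted p = 8.28e-06) and on knockdown under PLX4032 (-0.76 ± 0.080, limma adjusted p = 3.02e-05), and both knockdown groups lay below both scrambled groups. All levels here are log2 intensities normalized by RMA, and levels of different probe sets are not compared with each other as amounts of RNA. Changes are log2 differences ± SE from limma, fitted to the 8 arrays together (n = 2 in each group), and a gene is said to rise or fall where its adjusted p (limma's moderated test, Benjamini-Hochberg over 18404 genes) was at most 0.05. Because this is bulk RNA, a change in the share of cells that make a transcript and a change in RNA per cell cannot be told apart.

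The labelled cell type was checked against marker lists, of which 8 of 9 melanocyte markers were measured. MITF, the target of the hairpin, is on the melanocyte list, so its falls on knockdown are part of the counts and medians below. All 8 averaged at least 6.23 in scrambled DMSO cells, MLANA being the dimmest, and the list itself moved with both perturbations. On knockdown 1 rose and 5 fell, in DMSO and under PLX4032 alike (medians -0.72 and -0.72), with TYRP1 (-2.55 ± 0.098) and MLANA (-1.83 ± 0.095) lowest in DMSO, S100B higher, and SOX10 and TYR not passing. These calls are 75% of the list in each, against 33.2% and 28.5% of all genes. Under PLX4032 7 of 8 rose and 0 fell in knockdown and in scrambled cells alike (87.5%, against 33.7% and 34.1% of all genes). Their summed level was 14.11 to 14.13 in knockdown cells under PLX4032, 13.60 to 13.71 in knockdown cells in DMSO, 14.30 to 14.48 in scrambled cells under PLX4032, and close to 13.85 on both arrays of scrambled DMSO cells.

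Among 10 fibroblast and mural cell markers other than collagens, all measured, 2 rose and 1 fell on knockdown in DMSO, 0 rose and 2 fell on knockdown under PLX4032, 2 rose and 1 fell under PLX4032 in knockdown cells, and 3 rose and 0 fell under PLX4032 in scrambled cells. These are 30%, 20%, 30% and 30% of the list, where 33.2%, 28.5%, 33.7% and 34.1% of all genes were called. Their summed level was 11.13 to 11.24 in knockdown cells under PLX4032, 10.64 to 10.70 in knockdown cells in DMSO, 11.35 to 11.49 in scrambled cells under PLX4032, and 10.42 to 10.48 in scrambled DMSO cells. ACTA2, smooth muscle actin, and LUM, the proteoglycan lumican, are the brightest of the 10. ACTA2 rose under PLX4032 by 1.18 ± 0.11 in knockdown cells and 1.69 ± 0.11 in scrambled cells and fell on knockdown under PLX4032 (-0.41 ± 0.11), and LUM rose on knockdown in DMSO (0.39 ± 0.085) and in scrambled cells under PLX4032 (0.42 ± 0.085). FAP, a fibroblast surface protease, fell on knockdown in DMSO (-0.84 ± 0.081) and under PLX4032 (-0.56 ± 0.081).

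Endothelial markers (6 of 6 measured) summed to 8.42 to 8.45 in knockdown cells under PLX4032, 8.57 to 8.62 in knockdown cells in DMSO, 8.72 to 8.76 in scrambled cells under PLX4032, and 9.13 to 9.14 in scrambled DMSO cells, and KDR, the brightest of them, fell on knockdown in DMSO (-0.93 ± 0.084). In that comparison 1 of the 6 rose and 1 fell (33.3%, against 33.2% of all genes). The other endothelial markers did not follow KDR: 5 of 6 changes were above 0, with a median of 0.13. Leukocyte markers (7 of 8 measured) summed to 10.82 to 10.83, 10.85 to 10.91, 10.91 to 11.15 and 10.55 to 10.63 in the same order of groups, with CD14 (0.85 ± 0.11) and CD68 (0.28 ± 0.097) higher on knockdown in DMSO and PTPRC, the defining leukocyte gene, at 3.44 in scrambled DMSO cells. Of these 7, 2 rose and 0 fell on knockdown in DMSO (28.6%, against 33.2% of all genes). Keratinocyte markers (6 of 8 measured) summed to 7.53 to 7.72 over the 8 arrays. The part of these marker shifts in the collagen results was not tested.

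Collagen genes rose on MITF knockdown, with and without the inhibitor. In DMSO 22 of 43 rose and 1 fell, where 14.4% of all genes tested rose and 18.8% fell, 33.2% in all. Under PLX4032 18 rose and 0 fell, where 13.5% of all genes rose and 15% fell, 28.5% in all. The median change over the 43 genes was 0.28 in DMSO and 0.19 under PLX4032, against 0.020 and 0.022 over all genes. These 2 comparisons share no arrays but use the same hairpin vectors. In both, 13 genes rose, which is 72.2% of those that rose under PLX4032 and 59.1% of those that rose in DMSO. The matching overlap over all genes was not computed, so whether these shares are unusual cannot be said. The 2 arrays of one group did not overlap those of the other for 38 collagen genes on knockdown in DMSO, against 68.2% of all genes, and for 32 on knockdown under PLX4032, against 62.6%. Changes of at least 1.5-fold were called for 11 collagen genes in DMSO and 12 under PLX4032, all of them rises, against 10.6% of all genes in either comparison. On knockdown in DMSO the calls of COL2A1, COL4A3, COL4A4, COL7A1, COL18A1, COL23A1, COL25A1 and COL27A1 ended without scrambled DMSO replicate B or either knockdown DMSO array. Such a fit leaves 1 array in a group. The share of all genes called in it is not given here, so whether collagen genes lost more calls than others cannot be said.

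PLX4032 moved collagen genes in both directions. In scrambled cells 11 rose and 4 fell, where 17.3% of all genes rose and 16.8% fell, so that the total called, 15 of 43, lay near the 34.1% of all genes called. In knockdown cells 11 rose and 3 fell, where 18.6% of all genes rose and 15.1% fell, and 33.7% were called in all. The groups did not overlap for 29 collagen genes in scrambled cells, against 65.3% of all genes, and for 22 in knockdown cells, against 64.5%. Of the 11 that rose in each, 7 were shared, COL5A2, COL9A3, COL11A2, COL16A1, COL18A1, COL24A1 and COL27A1. Here too the overlap over all genes was not computed. The call of COL16A1 in scrambled cells (0.36 ± 0.11) ended under both rescaled settings (repeated quantile normalization and median centring of each array) and without scrambled DMSO replicate B or either scrambled PLX4032 array (0.23 to 0.48 over all alternatives run).

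Knockdown cells under PLX4032, set against untreated scrambled cells, held the most collagen calls. There 33 of 43 rose and 1 fell, where 27.1% of all genes rose and 21.5% fell, 48.6% in all. The median change was 0.48, against 0.083 over all genes. Changes of at least 1.5-fold in either direction were called for 20 of 43 collagen genes, against 20.2% of all genes. Rises of that size were called for 19 of the 43, and for 1662 of the 18404 genes tested. Between these 2 groups the arrays did not overlap for 39 of 43 collagen genes, against 73.6% of all genes. This comparison shares its arrays with the others and is no independent count.

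**Figure D1:**
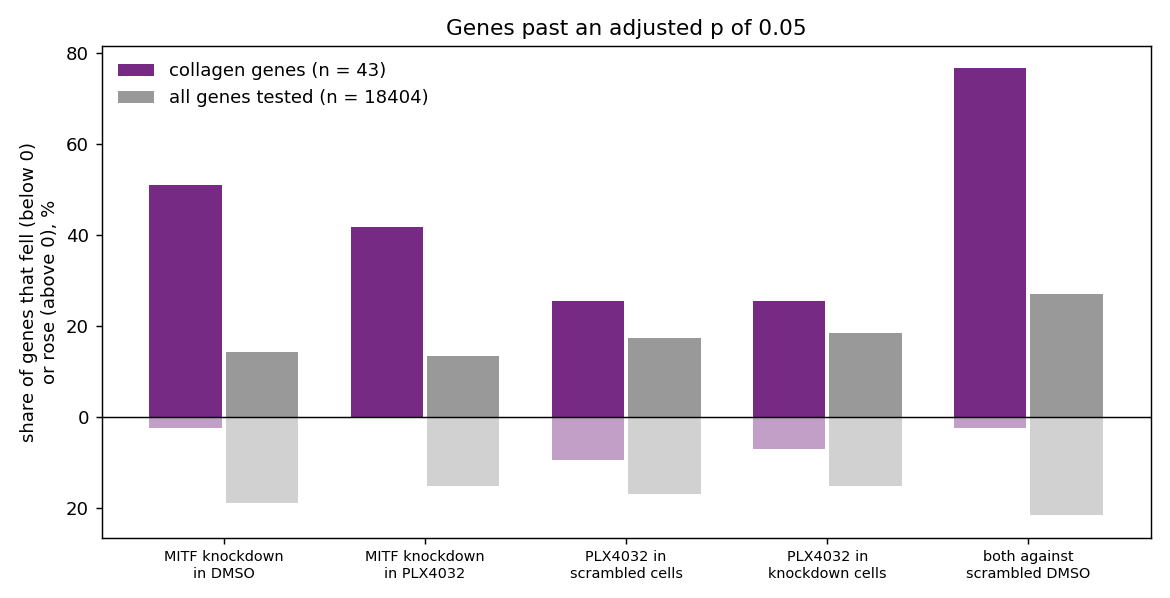
Share of genes that rose (solid bars above 0) or fell (pale bars below 0) past an adjusted p of 0.05 in 5 comparisons, in percent, for 43 collagen genes (purple) and for all 18404 genes tested (grey). The purple bars above 0 stand higher than the grey ones in every comparison, and most so where both perturbations are set against scrambled DMSO cells (33 of 43 rose, against 27.1% of all genes).

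Most collagen probe sets were dim. Of the 43, 33 averaged below the median gene (6.80 over all arrays), and the median collagen gene stood at 5.67. On each array the median over the 43 genes was 6.03 and 5.86 in knockdown cells under PLX4032, 5.84 and 5.88 in knockdown cells in DMSO, 5.54 and 5.61 in scrambled cells under PLX4032, and 5.42 and 5.22 in scrambled DMSO cells. The median over all genes lay between 6.74 and 6.81 on all 8 arrays.

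Dim genes as a whole also read somewhat higher in the perturbed groups. In the comparison of both perturbations with scrambled DMSO cells, the 9202 genes below the median level had a median change of 0.14 and 33.4% were called, while those at or above it had a median of -0.049. The 33 dim collagen genes had a median of 0.33 with 72.7% called. On knockdown in DMSO the dim genes had a median of 0.087, with 20.2% called, and the dim collagen genes 0.26, with 39.4% called. The part of this shift in the small collagen changes was not tested.

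Type IV collagen forms the network of the basement membrane, and its common form is a trimer of COL4A1 and COL4A2 chains. COL4A1 (chromosome 13) read 8.77 and 8.65 in knockdown cells under PLX4032, 9.08 and 9.05 in knockdown cells in DMSO, 6.64 and 6.59 in scrambled cells under PLX4032, and 7.56 and 7.51 in scrambled DMSO cells. The 4 groups did not overlap: the knockdown groups were highest and scrambled cells under PLX4032 lowest. COL4A1 rose on knockdown by 1.53 ± 0.081 in DMSO (2.88-fold, adjusted p = 2.8e-07) and by 2.10 ± 0.081 under PLX4032 (4.28-fold, adjusted p = 1.61e-08). PLX4032 lowered it in scrambled cells (-0.92 ± 0.081, 1.9-fold, adjusted p = 7.39e-06) and less in knockdown cells (-0.35 ± 0.081, 1.28-fold, adjusted p = 0.00544). The difference between these responses, the interaction, was 0.57 ± 0.12 (limma adjusted p = 0.00818).

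COL4A2 followed the same order of hairpins. It read 9.62 and 9.55 in knockdown cells under PLX4032, 9.68 and 9.61 in knockdown cells in DMSO, 8.34 and 8.26 in scrambled cells under PLX4032, and 8.68 and 8.65 in scrambled DMSO cells. The knockdown groups overlapped each other and stood above both scrambled groups. Knockdown raised it by 0.98 ± 0.080 in DMSO (1.97-fold, adjusted p = 5.83e-06) and by 1.29 ± 0.080 under PLX4032 (2.44-fold, adjusted p = 5.33e-07). PLX4032 lowered it in scrambled cells (-0.37 ± 0.080, adjusted p = 0.0042), and its value in knockdown cells was -0.063 ± 0.080 (adjusted p = 0.621). The interaction, 0.31 ± 0.11, did not pass the test (adjusted p = 0.117).

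COL4A1 and COL4A2 lie head to head and are transcribed away from a common stretch of DNA. In RefSeq annotation on GRCh38.p14 their annotated starts are 126 bases apart, and the 300-base windows around the starts share 226 bases. The window of COL4A1, chr13:110307108-110307407 on the minus strand, is shown because both genes of this pair moved together on knockdown. It runs 5′ to 3′ toward COL4A1, with the bases between the 2 starts in capitals.
COL4A1: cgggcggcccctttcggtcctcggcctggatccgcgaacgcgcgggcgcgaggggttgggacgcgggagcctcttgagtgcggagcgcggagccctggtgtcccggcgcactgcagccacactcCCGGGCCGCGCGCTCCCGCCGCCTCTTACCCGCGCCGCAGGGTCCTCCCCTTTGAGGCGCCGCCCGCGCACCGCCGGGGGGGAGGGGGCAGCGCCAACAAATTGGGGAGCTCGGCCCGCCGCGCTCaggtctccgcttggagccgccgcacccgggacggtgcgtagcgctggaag

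The window holds neither CACGTG nor TCATGTG, letters found in E-box and M-box sites of the kind MITF binds, nor TGANTCA, the letters of AP-1 sites, on either strand. RefSeq windows were matched for 31 of the 43 collagen genes, 43 windows in all. No window was matched for COL1A1, COL1A2, COL2A1, COL3A1, COL5A2, COL6A1, COL6A5, COL8A1, COL9A3, COL14A1, COL20A1 and COL22A1, so the counts do not cover these genes. CACGTG stood in 0 of the 43 windows, against 8.34% of 22199 windows of protein-coding genes. TCATGTG stood in 1 window, that of COL24A1, and in 2.32% of protein-coding windows. TGANTCA stood in 1 window, that of COL10A1, and in 6.15% of protein-coding windows. These counts describe letters near annotated starts and nothing further away.

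The other type IV genes also lie in head-to-head pairs, with 418 bases between COL4A3 and COL4A4 and 379 between COL4A5 and COL4A6 in the same annotation. All 4 were dim, with means of 4.18 to 4.35 over 8 arrays. COL4A3 (0.26 ± 0.091) and COL4A4 (0.30 ± 0.081) rose slightly on knockdown in DMSO, and both calls ended without either knockdown DMSO array or without scrambled DMSO replicate B. COL4A3 lost its call under 9 of 14 alternatives, those without either scrambled PLX4032 array among them. COL4A3 read 0.17 to 0.35 over all alternatives run, and COL4A4 0.21 to 0.36. COL4A5 and COL4A6 passed in no comparison.

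Type VIII collagen is a short-chain network collagen best known from endothelium and the cornea. Its COL8A1 gene (chromosome 3) read 5.72 and 5.77 in knockdown cells under PLX4032, 4.87 and 4.77 in knockdown cells in DMSO, 4.17 and 4.13 in scrambled cells under PLX4032, and 4.23 and 4.32 in scrambled DMSO cells. The knockdown groups stood above the scrambled ones, and knockdown cells under PLX4032 were highest. Knockdown raised COL8A1 by 0.55 ± 0.082 in DMSO (1.46-fold, adjusted p = 0.000431) and by 1.59 ± 0.082 under PLX4032 (3.01-fold, adjusted p = 1.25e-07). PLX4032 raised it in knockdown cells (0.92 ± 0.082, 1.9-fold, adjusted p = 5.81e-06), where the value in scrambled cells was -0.12 ± 0.082 (adjusted p = 0.291). The interaction was 1.04 ± 0.12 (limma adjusted p = 0.000181). Its partner chain gene COL8A2 passed only where both perturbations were set against scrambled DMSO cells (0.38 ± 0.11), and that call ended under repeated quantile normalization and without knockdown PLX4032 replicate A or scrambled DMSO replicate A (0.23 to 0.53 over all alternatives run). COL10A1, the network collagen of growth-plate cartilage, passed in no comparison.

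**Figure D2:**
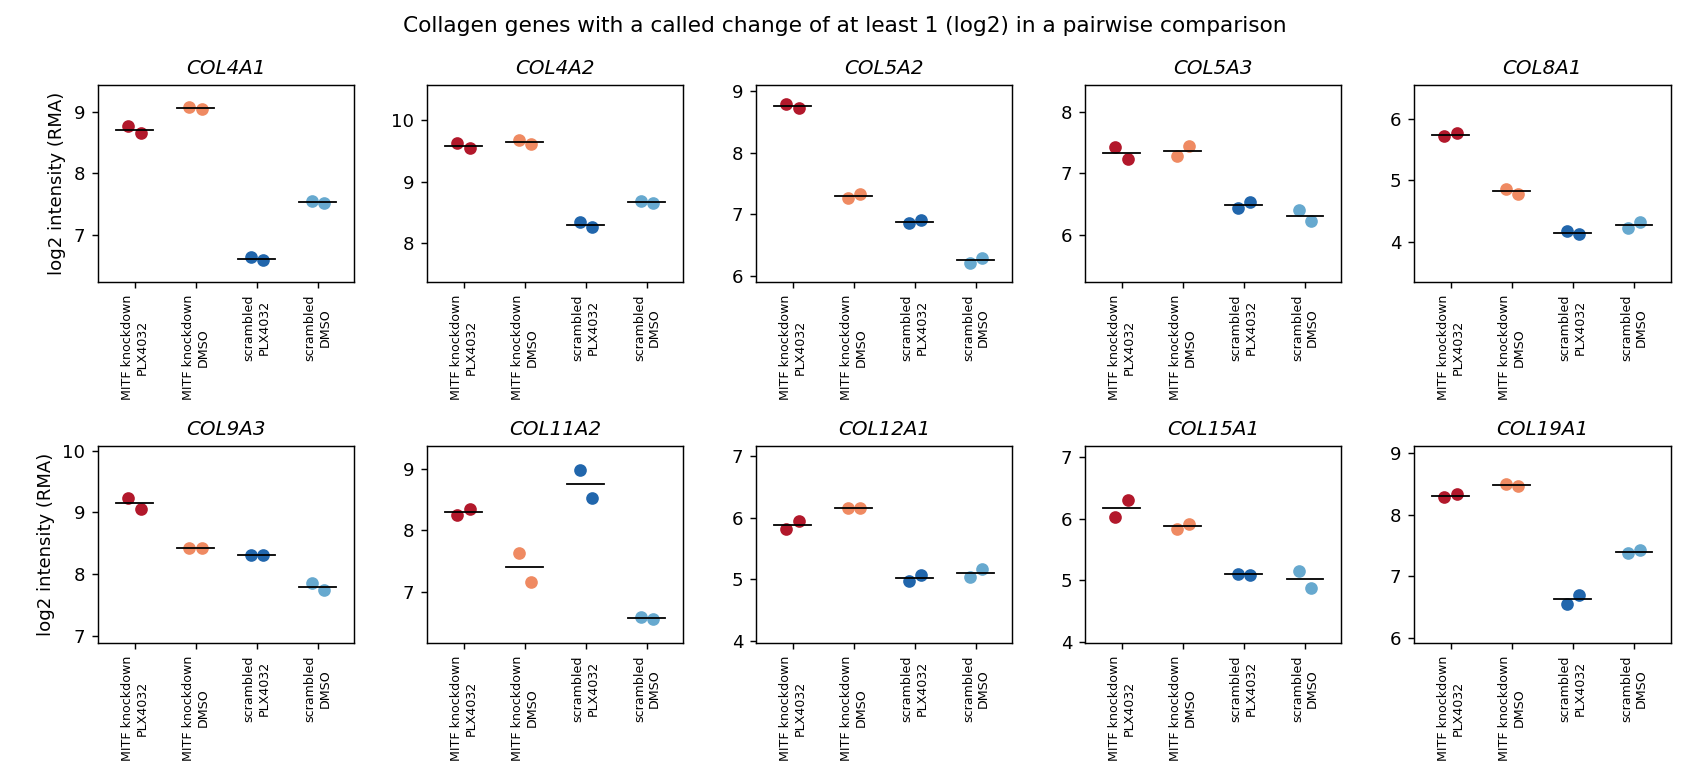
Log2 intensity (RMA) on each of 8 arrays for the 10 collagen genes with a called change of at least 1 on the log2 scale in a pairwise comparison. Dots are arrays, black lines are group means (n = 2), and every panel spans the same range of log2 units. In every panel except COL11A2 both knockdown groups stand above both scrambled groups. In COL5A2, COL8A1, COL9A3 and COL15A1 the arrays of knockdown cells under PLX4032 lie above all others.

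Fibrillar collagens build the striated fibrils of connective tissue. Type V collagen regulates fibril diameter, and its genes gave the largest collagen change in these data. COL5A2 (chromosome 2) read 8.79 and 8.73 in knockdown cells under PLX4032, 7.26 and 7.33 in knockdown cells in DMSO, 6.85 and 6.90 in scrambled cells under PLX4032, and 6.21 and 6.30 in scrambled DMSO cells. No 2 groups overlapped, and each perturbation alone gave a higher level than scrambled DMSO cells. Knockdown raised COL5A2 by 1.05 ± 0.081 in DMSO (2.07-fold, adjusted p = 3.93e-06) and by 1.89 ± 0.081 under PLX4032 (3.7-fold, adjusted p = 3.15e-08). PLX4032 raised it by 1.46 ± 0.081 in knockdown cells (2.76-fold, adjusted p = 1.71e-07) and by 0.63 ± 0.081 in scrambled cells (1.54-fold, adjusted p = 0.000132). With both perturbations it stood 5.7-fold above scrambled DMSO cells (2.51 ± 0.081, adjusted p = 2.96e-09). The interaction, 0.84 ± 0.11, passed the test (limma adjusted p = 0.000742), so the joint rise exceeded the sum of the separate rises on the log2 scale.

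COL5A3 encodes a further type V chain and did not pass in either PLX4032 comparison. It read 7.43 and 7.23 in knockdown cells under PLX4032, 7.28 and 7.44 in knockdown cells in DMSO, 6.44 and 6.54 in scrambled cells under PLX4032, and 6.40 and 6.23 in scrambled DMSO cells. The knockdown groups overlapped each other and lay wholly above the scrambled ones. The rise on knockdown was 1.05 ± 0.10 in DMSO (2.07-fold, adjusted p = 2.24e-05) and 0.84 ± 0.10 under PLX4032 (1.79-fold, adjusted p = 0.000101). The PLX4032 values were -0.03 ± 0.10 in knockdown cells and 0.18 ± 0.10 in scrambled cells (adjusted p = 0.868 and 0.216). COL5A1, whose chain is part of most type V trimers, passed only with both perturbations (0.31 ± 0.099), and that call ended under both rescaled settings, in the fit of those 2 groups alone, and without knockdown PLX4032 replicate A or scrambled DMSO replicate B (0.14 to 0.42 over all alternatives run).

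COL11A2 (chromosome 6), a chain of the minor cartilage fibril collagen type XI, had the largest collagen rise under the inhibitor in scrambled cells. It read 8.25 and 8.35 in knockdown cells under PLX4032, 7.63 and 7.17 in knockdown cells in DMSO, 8.98 and 8.52 in scrambled cells under PLX4032, and 6.59 and 6.57 in scrambled DMSO cells. The 4 groups did not overlap. PLX4032 raised it by 0.90 ± 0.16 in knockdown cells (1.87-fold, adjusted p = 0.00109) and by 2.17 ± 0.16 in scrambled cells (4.5-fold, adjusted p = 2.26e-06), with an interaction of -1.27 ± 0.23 (limma adjusted p = 0.00417). Knockdown raised it in DMSO (0.82 ± 0.16, adjusted p = 0.00282), and its value on knockdown under PLX4032 was -0.45 ± 0.16 (adjusted p = 0.0595).

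COL11A2 was the only collagen gene with a second probe set that carries exactly 1 symbol, and the sizes differed between them. On knockdown under PLX4032 the signs differed too, -0.45 on the brighter and 0.022 on the dimmer, and neither passed. The PLX4032 groups overlapped on the dimmer one. The dimmer one read 6.43 and 6.32 in knockdown cells under PLX4032, 6.26 and 6.05 in knockdown cells in DMSO, 6.35 and 6.36 in scrambled cells under PLX4032, and 5.81 and 5.72 in scrambled DMSO cells. It rose by 0.59 ± 0.093 under PLX4032 in scrambled cells and by 0.39 ± 0.093 on knockdown in DMSO. Its PLX4032 value in knockdown cells (0.22 ± 0.093, limma adjusted p = 0.1 over all probe sets with 1 symbol) and its interaction (-0.37 ± 0.13, limma adjusted p = 0.115) did not pass. With the mean of both probe sets in place of the brighter one, the PLX4032 rise was 0.56 in knockdown cells and 1.38 in scrambled cells and the interaction -0.82, all still called. COL11A1, the partner chain gene, passed in no comparison.

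Type I collagen, the main fibril collagen of skin and bone, is a trimer of COL1A1 and COL1A2 chains. These genes did not move together. A further probe set, which carries the symbols of both PNLIP and COL1A2, was left out by the rule on symbols. COL1A2 was the only collagen gene that fell on knockdown in DMSO and the only one that fell with both perturbations. It read 5.79 and 5.64 in knockdown cells under PLX4032, 5.99 and 6.01 in knockdown cells in DMSO, 5.65 and 5.64 in scrambled cells under PLX4032, and 6.42 and 6.41 in scrambled DMSO cells. Scrambled DMSO cells were highest, and the PLX4032 groups overlapped. The fall was -0.41 ± 0.083 on knockdown in DMSO (1.33-fold, adjusted p = 0.00293), -0.77 ± 0.083 under PLX4032 in scrambled cells (1.71-fold, adjusted p = 3.22e-05) and -0.70 ± 0.083 with both perturbations (1.62-fold, adjusted p = 3.69e-05). PLX4032 also lowered it in knockdown cells (-0.28 ± 0.083, adjusted p = 0.0203), a call that ended under a trended and robust variance prior and without knockdown DMSO replicate A, knockdown DMSO replicate B or knockdown PLX4032 replicate B (-0.36 to -0.21 over all alternatives run). COL1A1 passed only with both perturbations, in the opposite direction (0.34 ± 0.11), and that call ended under both rescaled settings, in the fit of those 2 groups alone, and without knockdown PLX4032 replicate A or scrambled DMSO replicate B (0.20 to 0.49 over all alternatives run).

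Among the remaining fibrillar genes, COL3A1, which makes the fibrils of elastic tissues, read 6.07 and 5.81 in knockdown cells under PLX4032, 5.35 and 5.39 in knockdown cells in DMSO, 5.22 and 5.35 in scrambled cells under PLX4032, and 5.19 and 5.11 in scrambled DMSO cells. Knockdown cells under PLX4032 lay above all other arrays, 0.57 ± 0.10 above knockdown cells in DMSO (adjusted p = 0.0009) and 0.66 ± 0.10 above scrambled cells under PLX4032 (adjusted p = 0.000465). Its interaction, 0.44 ± 0.14, missed the threshold (limma adjusted p = 0.0714). COL24A1 rose under PLX4032 by 0.34 ± 0.081 in knockdown cells and 0.70 ± 0.081 in scrambled cells, and COL27A1 by 0.32 ± 0.082 and 0.44 ± 0.082. The calls of both in knockdown cells ended without knockdown DMSO replicate B, COL24A1's also without knockdown PLX4032 replicate B and COL27A1's also without knockdown PLX4032 replicate A (0.29 to 0.39 and 0.26 to 0.38 over all alternatives run). COL2A1, the cartilage fibril collagen, read 0.33 ± 0.10 on knockdown in DMSO and 0.31 ± 0.10 in scrambled cells under PLX4032. Both of these calls ended under repeated quantile normalization, without scrambled DMSO replicate B and without either knockdown DMSO array, and the second also under median centring, under a trended and robust variance prior and without either scrambled PLX4032 array (0.22 to 0.40 and 0.22 to 0.38 over all alternatives run).

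Fibril-associated collagens decorate the surface of fibrils. COL19A1 (chromosome 6), a rare collagen known from basement membrane zones, read 8.29 and 8.33 in knockdown cells under PLX4032, 8.50 and 8.47 in knockdown cells in DMSO, 6.55 and 6.70 in scrambled cells under PLX4032, and 7.38 and 7.43 in scrambled DMSO cells. Its groups fell in the same order as those of COL4A1 and did not overlap. Knockdown raised it by 1.08 ± 0.084 in DMSO (2.11-fold, adjusted p = 3.96e-06) and by 1.69 ± 0.084 under PLX4032 (3.22-fold, adjusted p = 1e-07). PLX4032 lowered it in scrambled cells (-0.77 ± 0.084, 1.71-fold, adjusted p = 3.54e-05), its value in knockdown cells was -0.17 ± 0.084 (adjusted p = 0.16), and the interaction was 0.61 ± 0.12 (limma adjusted p = 0.00687).

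COL12A1 encodes a large fibril-associated collagen of dense connective tissue. It read 5.82 and 5.95 in knockdown cells under PLX4032, 6.16 and 6.15 in knockdown cells in DMSO, 4.98 and 5.06 in scrambled cells under PLX4032, and 5.03 and 5.16 in scrambled DMSO cells. The scrambled groups overlapped each other, and both knockdown groups lay above them. Knockdown raised it by 1.06 ± 0.087 in DMSO (2.08-fold, adjusted p = 6.07e-06) and by 0.86 ± 0.087 under PLX4032 (1.82-fold, adjusted p = 2.19e-05). A small fall under PLX4032 in knockdown cells (-0.27 ± 0.087, adjusted p = 0.0328) ended under a trended and robust variance prior and without knockdown DMSO replicate A, knockdown DMSO replicate B or knockdown PLX4032 replicate A (-0.34 to -0.21 over all alternatives run).

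Type IX collagen binds cartilage fibrils and is made of COL9A1, COL9A2 and COL9A3 chains. COL9A3 (chromosome 20) read 9.23 and 9.06 in knockdown cells under PLX4032, 8.43 and 8.41 in knockdown cells in DMSO, 8.31 and 8.31 in scrambled cells under PLX4032, and 7.85 and 7.74 in scrambled DMSO cells. No 2 groups overlapped, and each perturbation raised it in either background. The rise was 0.63 ± 0.088 on knockdown in DMSO, 0.84 ± 0.088 on knockdown under PLX4032, 0.72 ± 0.088 under PLX4032 in knockdown cells and 0.51 ± 0.088 under PLX4032 in scrambled cells (adjusted p at most 0.000913). With both perturbations it reached 1.35 ± 0.088 (2.55-fold, adjusted p = 3.25e-07), and the interaction, 0.21 ± 0.12, did not pass (adjusted p = 0.346). COL9A2 rose by 0.50 ± 0.10 on knockdown in DMSO and by 0.64 ± 0.10 with both perturbations, and COL9A1 read 0.30 ± 0.099 with both, a call that ended under repeated quantile normalization and without knockdown PLX4032 replicate A or scrambled DMSO replicate B (0.16 to 0.40 over all alternatives run).

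Of the other fibril-associated genes, COL16A1 rose under PLX4032 in knockdown cells (0.62 ± 0.11, adjusted p = 0.00107) and on knockdown under PLX4032 (0.53 ± 0.11, adjusted p = 0.00419). COL22A1 rose on knockdown by 0.51 ± 0.099 in DMSO and 0.50 ± 0.099 under PLX4032. COL14A1 rose under PLX4032 in knockdown cells (0.49 ± 0.10). COL20A1 passed only with both perturbations (0.33 ± 0.12), a call that ended under 9 of 15 alternatives, among them those without scrambled DMSO replicate B or without knockdown PLX4032 replicate A (0.12 to 0.53 over all alternatives run), and COL21A1 passed in none.

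Type VI collagen forms beaded filaments near the cell surface from COL6A1, COL6A2 and COL6A3 or a related chain. COL6A1 (chromosome 21) read 10.05 and 9.89 in knockdown cells under PLX4032 and 9.95 and 9.81 in knockdown cells in DMSO, against 9.31 and 9.21 in scrambled cells under PLX4032 and 9.24 and 9.10 in scrambled DMSO cells. Arrays of the same hairpin overlapped across treatments, and the hairpins did not overlap. It rose by 0.71 ± 0.095 on knockdown in DMSO and by 0.71 ± 0.095 under PLX4032 (1.63-fold in each, adjusted p = 0.00021 and 0.000201). COL6A2, its neighbour on the chromosome, rose by 0.79 ± 0.11 and 0.58 ± 0.11 in the same comparisons (adjusted p = 0.000235 and 0.00198), and neither gene passed under PLX4032 in either background. The third chain genes did not follow, but their probe sets were dim, and how far low signal hides a change was not tested. COL6A3 and COL6A6, with means of 4.17 and 3.64 over 8 arrays, passed in no comparison. COL6A5, the dimmest of the 43 at 3.32, rose under PLX4032 in scrambled cells (0.37 ± 0.084).

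The multiplexins COL15A1 and COL18A1 carry heparan or chondroitin sulfate chains in basement membranes, and both rose. COL15A1 (chromosome 9) read 6.03 and 6.30 in knockdown cells under PLX4032, 5.84 and 5.92 in knockdown cells in DMSO, 5.10 and 5.09 in scrambled cells under PLX4032, and 5.16 and 4.87 in scrambled DMSO cells. The scrambled groups overlapped, and both knockdown groups lay above them. The rise was 0.87 ± 0.12 on knockdown in DMSO (1.82-fold, adjusted p = 0.000191) and 1.07 ± 0.12 under PLX4032 (2.1-fold, adjusted p = 3.59e-05). COL18A1, the precursor of endostatin, rose by 0.68 ± 0.086 on knockdown under PLX4032 and by 0.61 ± 0.086 under PLX4032 in knockdown cells (adjusted p = 0.000127 and 0.000184). Its smaller rises, 0.32 on knockdown in DMSO and 0.26 in scrambled cells under PLX4032, lost the call without scrambled DMSO replicate B or either of the knockdown DMSO arrays, and the second also without scrambled DMSO replicate A, without either scrambled PLX4032 array and in the fit of those 2 groups alone (0.31 to 0.43 and 0.23 to 0.30 over all alternatives run).

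Changes elsewhere were small. COL7A1, the anchoring fibril of the skin, read 0.39 ± 0.11 on knockdown in DMSO, a call that ended under repeated quantile normalization and without scrambled DMSO replicate B or either of the knockdown DMSO arrays (0.26 to 0.53 over all alternatives run). Of the transmembrane collagens, COL23A1 read 0.37 ± 0.10 and COL25A1 0.30 ± 0.090 on knockdown in DMSO, and both calls ended without the same 3 arrays, COL25A1's also under repeated quantile normalization and a trended and robust variance prior (0.32 to 0.41 and 0.17 to 0.33 over all alternatives run). COL13A1 passed in no comparison. COL28A1 rose under PLX4032 in knockdown cells (0.41 ± 0.085). Of the 43 genes, 34 passed in at least 1 of the 5 pairwise comparisons, against 63.5% of all genes, 9 in none, against 36.5%, and 4 passed in all 5 (COL4A1, COL5A2, COL9A3 and COL18A1), against 7.32%. The 9 were COL4A5, COL4A6, COL6A3, COL6A6, COL10A1, COL11A1, COL13A1, COL21A1 and COL26A1, with values between -0.10 and 0.28 in those comparisons.

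**Figure D3:**
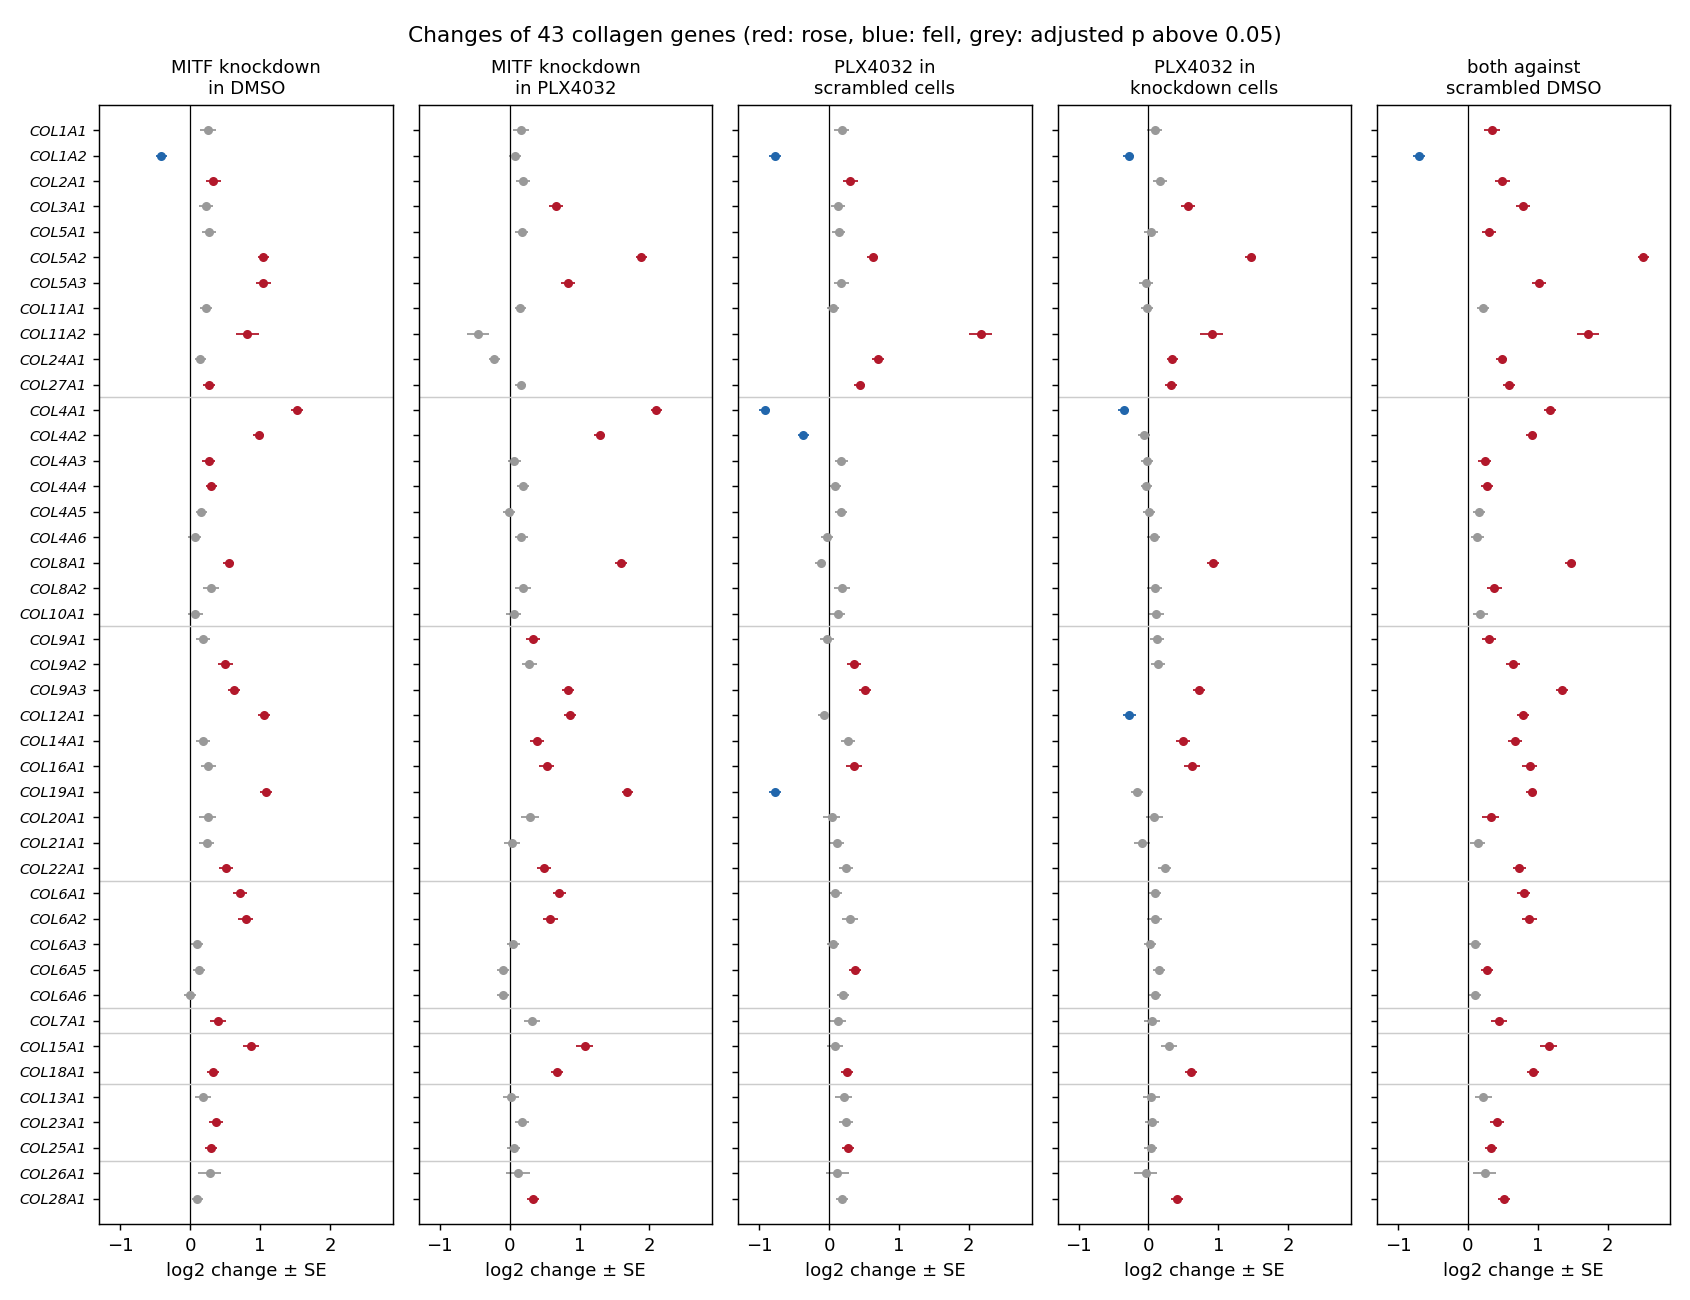
Log2 change ± SE of all 43 collagen genes in 5 comparisons (columns), grouped by class from top to bottom as fibrillar, network-forming, fibril-associated, beaded filament, anchoring fibril, multiplexin, transmembrane and other. Red points rose, blue points fell and grey points had an adjusted p above 0.05. COL5A2 reaches 2.51 in the last column, and COL1A2 is the only blue point there.

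The interaction asks whether a gene's response to PLX4032 differed between knockdown and scrambled cells. Of the 43 genes 6 passed, 5 upward and 1 downward, where 11.8% of all genes did (6.97% upward and 4.85% downward), a share close to that of the collagens. Interactions of at least 1.5-fold were called for 4 collagen genes, against 7.55% of all genes. COL5A2, COL8A1, COL4A1, COL19A1 and COL1A2 had a more positive response in knockdown cells, and COL11A2 a less positive one. In COL4A1, COL19A1 and COL1A2 PLX4032 lowered the level in scrambled cells, and the value in knockdown cells was nearer 0. The interaction of COL1A2, 0.49 ± 0.12 (limma adjusted p = 0.0204), ended under a trended and robust variance prior and without either knockdown DMSO array, either scrambled PLX4032 array or knockdown PLX4032 replicate A (0.41 to 0.56 over all alternatives run).

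**Figure D4:**
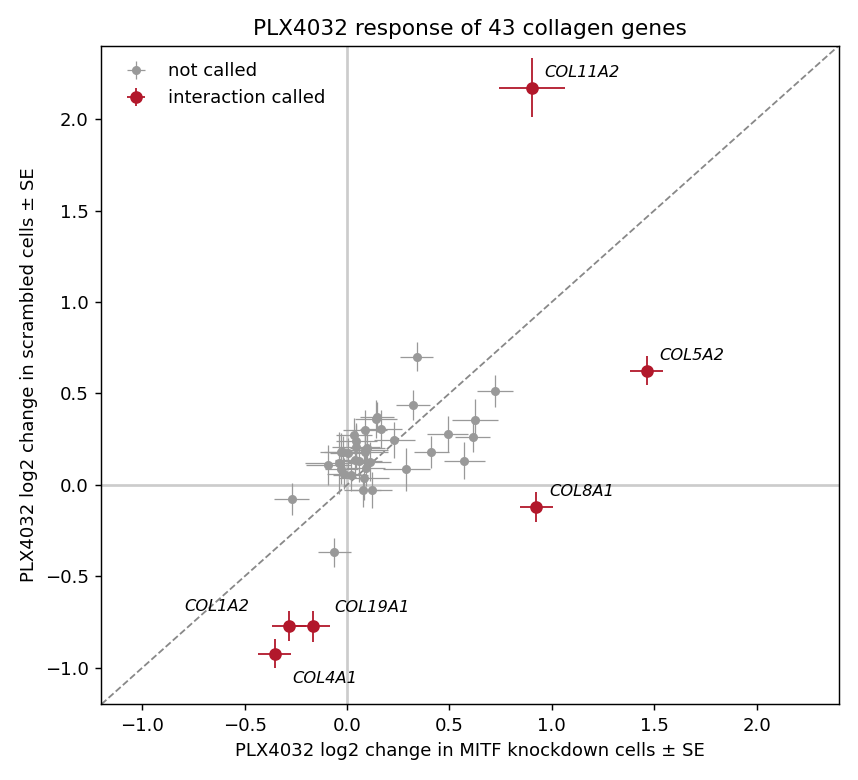
PLX4032 log2 change ± SE of each collagen gene in MITF knockdown cells (x axis) and in scrambled cells (y axis). The dashed line marks equal responses, and red points passed the test of the interaction. COL5A2 and COL8A1 lie to the right of the line (0.84 and 1.04 on the interaction), and COL11A2 lies above it (-1.27).

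Genes that act on collagen were counted from lists chosen for collagen biology. The lists were chosen with earlier results of these data known, so the shares below are descriptive. For all genes tested, 33.2% were called on knockdown in DMSO, 28.5% on knockdown under PLX4032 and 34.1% under PLX4032 in scrambled cells. For those at or above the median level the shares were 46.2%, 41.9% and 49.1%. The part of signal level in the list shares below was not tested. Of 32 measured processing enzymes and chaperones (of 33 listed), 16 rose and 2 fell on knockdown in DMSO (56.2% called, against 33.2% of all genes), with a median change of 0.26, and 16 rose and 1 fell on knockdown under PLX4032 (53.1%, against 28.5%), with a median of 0.25. The prolyl 3-hydroxylase genes P3H2 (2.24 ± 0.082) and P3H1 (1.22 ± 0.080), the prolyl 4-hydroxylase gene P4HA3 (1.85 ± 0.090) and SEC24D (0.97 ± 0.082), a coat protein of the vesicles that export procollagen, rose most in DMSO. Under PLX4032 in scrambled cells the same list had 3 rises and 12 falls (46.9%, against 34.1% of all genes), with a median of -0.13. In knockdown cells PLX4032 gave 1 rise and 12 falls (40.6%, against 33.7% of all genes), with a median of -0.068. The changes in scrambled cells were led by BMP1 (1.27 ± 0.079), a procollagen protease. The largest falls there were those of P3H2 (-1.12 ± 0.082), P4HA1 (-0.94 ± 0.090) and ADAMTS3 (-0.84 ± 0.11), another procollagen protease.

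Of the 5 lysyl oxidase genes, which cross-link collagen and elastin, 3 rose and 0 fell on knockdown in DMSO and likewise under PLX4032, while 0 rose and 3 fell under PLX4032 in scrambled cells. Each count is 60% of a very short list, against 33.2%, 28.5% and 34.1% of all genes. In knockdown cells PLX4032 gave 0 rises and 2 falls (40%, against 33.7% of all genes). LOXL3 rose by 1.31 ± 0.085 on knockdown in DMSO and by 2.53 ± 0.085 on knockdown under PLX4032, and it fell under PLX4032 in scrambled cells (-1.55 ± 0.085).

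Of 11 measured collagen receptors (of 12 listed), 5 rose and 1 fell on knockdown in DMSO, and 6 rose and 0 fell on knockdown under PLX4032, with medians of 0.23 and 0.33. That is 54.5% of the list in each, against 33.2% and 28.5% of all genes. The integrin subunit gene ITGA10 rose by 3.03 ± 0.094 in DMSO and by 4.05 ± 0.094 under PLX4032, and it fell under PLX4032 in scrambled cells (-2.61 ± 0.094). ITGA2, another integrin subunit that binds collagen, rose on knockdown under PLX4032 (3.06 ± 0.081) and read 0.18 ± 0.081 on knockdown in DMSO (adjusted p = 0.118). The discoidin receptor gene DDR1 rose by 0.45 ± 0.085 on knockdown in DMSO and by 1.44 ± 0.085 on knockdown under PLX4032. PLX4032 gave 0 rises and 4 falls among the receptors in scrambled cells (36.4%, against 34.1% of all genes). In knockdown cells it gave 3 rises and 2 falls (45.5%, against 33.7% of all genes).

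Of 17 collagen-degrading proteases and inhibitors, 5 rose and 4 fell on knockdown in DMSO, and 5 rose and 2 fell on knockdown under PLX4032, with medians of 0.15 and 0.083. These are 52.9% and 41.2% of the list, against 33.2% and 28.5% of all genes. For genes at or above the median level the shares were 46.2% and 41.9%. The membrane protease genes MMP15 (1.78 ± 0.078) and MMP16 (1.19 ± 0.085) rose in DMSO, and FAP (-0.84 ± 0.081) and the collagenase gene MMP8 (-0.77 ± 0.084) fell. Under PLX4032 in scrambled cells 6 rose and 3 fell (52.9%, against 34.1% of all genes). There MMP1, the interstitial collagenase, was lower (-1.56 ± 0.095) and MMP2, a gelatinase, higher (1.34 ± 0.079). In knockdown cells PLX4032 gave 5 rises and 3 falls (47.1%, against 33.7% of all genes).

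Of 18 measured matrix proteins that bind collagen (of 19 listed), 9 rose and 1 fell on knockdown in DMSO, and 9 rose and 0 fell on knockdown under PLX4032, with medians of 0.27 and 0.31. These are 55.6% and 50% of the list, against 33.2% and 28.5% of all genes. Matrilin-2, MATN2, rose by 2.05 ± 0.092 and 2.27 ± 0.092, and HSPG2, the basement membrane proteoglycan perlecan, by 0.41 ± 0.086 and 1.20 ± 0.086. Of 20 measured TGF-beta and YAP regulators of matrix genes (of 21 listed), 8 rose and 2 fell in each of these comparisons (50% called, against 33.2% and 28.5% of all genes), with medians of 0.15 and 0.19. CCN2, a matricellular TGF-beta and YAP target, rose by 1.87 ± 0.11 on knockdown in DMSO and fell on knockdown under PLX4032 (-0.91 ± 0.11), and TGFB3 rose by 0.39 ± 0.098 and 1.63 ± 0.098.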

How the data were processed

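The deposited values are log2 intensities of 32321 probe sets on 8 Affymetrix arrays, made by the authors with RMA (background correction, quantile normalization and summarization of probes), per the submitters' processing notes; the genome build they used is not given in the sources used here. Probe sets were named from the platform annotation and matched by Entrez ID to RefSeq (GRCh38.p14): 19158 carried 1 symbol, 1388 several and 11775 none. The brightest probe set was kept for each of 18404 genes, with no filter on low values. Array depth has no counterpart in reads, and 2 arrays per group limit the precision. All genes were fitted with limma 3.58.1 in R 4.3.3 (group means, moderated two-sided tests, 4 residual degrees of freedom), and p-values were adjusted by Benjamini-Hochberg over all genes, with a threshold of 0.05. The fit was tested on simulated data. Members and gene lists were chosen with earlier results of these data known. Named by rule were members with a called change of at least 1 on the log2 scale (value of every array), other called members, and up to 4 genes per list and comparison with the largest called change. Alternatives were repeated quantile normalization, median centring, the mean of all probe sets of a gene, leaving out the dimmest 40% of genes, a trended and robust prior, the A and B letters as a block, only the groups compared, and each array left out.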

Additional observations from a re-analysis of the deposited data

Results flagged for a closer look

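In 6 collagen genes the response to PLX4032 differed between knockdown and scrambled cells by the limma interaction term, given here as the log2 change in knockdown cells minus that in scrambled cells. The difference was 1.04 in COL8A1, 0.84 in COL5A2, 0.61 in COL19A1, 0.57 in COL4A1, 0.49 in COL1A2 and -1.27 in COL11A2. The call of COL1A2 ended under 6 of 14 alternatives (0.41 to 0.56 over all of them). The second probe set of COL11A2 read -0.37 and did not pass.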

How the results depend on the processing

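The numbers of collagen genes called kept within 1.5 times the reported ones under most alternatives, and of 110 called gene results 78 kept their call under all alternatives in which they were tested, 32 lost it under at least 1 and 0 changed sign. With the dimmest 40% of genes left out only 18 of the 43 were tested. Of these 18, 14 were called on knockdown in DMSO, 8 under PLX4032 in knockdown cells and 17 with both perturbations. For this and the alternatives below, the share of all genes called is not given here. Whether collagen genes lost more calls than other genes therefore cannot be read from these counts. Leaving out 1 array gave 15 to 27 calls on knockdown in DMSO, 15 to 20 on knockdown under PLX4032, 10 to 18 under PLX4032 in scrambled cells, 10 to 15 under PLX4032 in knockdown cells, 25 to 35 with both and 5 to 7 for the interaction. The 15 on knockdown in DMSO came without scrambled DMSO replicate B or either of the knockdown DMSO arrays. Deviations of the A arrays from their group means correlated at 0.33 between knockdown PLX4032 and scrambled DMSO cells. For the other pairs of groups the correlations were -0.094 to -0.0065. The letters A and B thus showed no pairing across all groups, and a shared part in those at 0.33 was not tested. As a replicate block, A and B gave 22 calls on knockdown in DMSO, 20 on knockdown under PLX4032, 16 under PLX4032 in scrambled cells, 14 in knockdown cells, 33 with both and 6 for the interaction. With the mean of all probe sets of a gene, COL11A2 read 1.38 under PLX4032 in scrambled cells, 0.56 in knockdown cells and -0.82 on the interaction. No background level was measured, so how far low signal limits the dim probe sets was not tested.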

Other observations

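Several genes that act on collagen also differed in their response to PLX4032 between knockdown and scrambled cells. The interaction was 2.89 for ITGA2, a collagen-binding integrin subunit, 1.52 for POSTN, a matricellular protein that binds type I collagen, and 1.22 for LOXL3, a cross-linking enzyme. For CCN2 it was -2.78. These genes were picked for large values, and 11.8% of all genes had a called interaction. By list the share was 6.25% for processing enzymes and chaperones, 11.1% for matrix proteins and 27.3% for receptors. It was 35.3% for proteases and inhibitors, 35% for TGF-beta and YAP regulators and 60% for the 5 lysyl oxidases.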
